A study of Mus musculus with 6 samples.

Results

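Horizontal cells (HC) were examined through 8 genes chosen by name, with earlier results of these data known. They were the 5 regulators *Onecut1*, *Onecut2*, *Onecut3*, *Prox1* and *Sall3* and the 3 effectors *Slc4a3*, *Tpm3* and *C1ql1*. All 8 were among the 11339 genes that passed the authors' filter on weak expression, each as 1 gene ID. RNA had been sequenced from whole retinas of 3 *Mll1KO* and 3 WT samples at P14, a pair of retinas being pooled in each sample. *Mll1KO* mice were MLL1 fl/fl, Chx10-Cre on the C57Bl6/J strain, so that Cre recombinase was driven in retinal progenitor cells. Excision in this model leaves a few retinal cells with intact *Mll1*. The comparison group was wild type C57Bl6/J of the same age rather than littermates without Cre, so the floxed alleles and Cre differed between the groups together. Values were RPKM, the reads of a gene scaled to its length and to the library total, and the library totals recovered from RPKM lay between 17961097 and 23836033 reads.

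HC are the inhibitory interneurons of the outer retina, where they receive glutamate from photoreceptors and feed signals back to them and forward to bipolar cells. Their fate is set by a series of transcription factors in which the Onecut proteins act early and Prox1 and Sall3 act in the differentiating cells. HC are a small fraction of retinal cells, and most of the genes that mark them are also used by other retinal neurons or glia.

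The targeted gene was read first. *Kmt2a*, the current symbol of *Mll1*, had an RPKM of 36.1, 36.9 and 34.6 in the WT samples and of 22.9, 20.4 and 22.3 in the *Mll1KO* samples, given in the order a, b, c as throughout. The lowest WT sample stood above the highest *Mll1KO* sample by 11.7, in the direction of the labels (log2 fold change -0.69 ± 0.05, SE, n = 3 per group; limma adjusted p = 2.77e-05). The RPKM covers the whole gene, including exons outside the excised part, so the remaining 60.9% is not a measure of intact transcript.

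Some libraries stood apart in genes of pigment cells, with sums that overlapped between the genotypes. The 4 of 8 such genes with values summed to an RPKM of 132, 37.8 and 213 in the WT libraries and of 34.6, 96.7 and 39.2 in the *Mll1KO* libraries, in the order a, b, c, the *Mll1KO* mean being 44.6% of the WT mean. All 4 had a lower mean in *Mll1KO*, and 1 of them was called lower, *Mfrp* (log2 fold change -0.76, limma adjusted p = 0.0465), which is named after its values were seen. Its call was lost with TMM, median-of-ratios and upper-quartile factors (limma adjusted p = 0.055, 0.056 and 0.0544), with the replicate block (0.0853) and without WT sample a or c or *Mll1KO* sample a or c (0.147, 0.135, 0.122 and 0.133). *Pmel*, a melanosome gene, had the highest WT mean and the lowest log2 fold change of them (-1.48, limma adjusted p = 0.113). It was called lower with libraries scaled to an equal sum over rod genes (-1.77, adjusted p = 0.0101). The same held without WT sample b (-2.23, 0.0123) or *Mll1KO* sample b (-2.03, 0.0451), and with the level of the list as a term (-0.38, 0.0036). *Mlana*, *Rpe65*, *Tyr* and *Slc45a2* were not analysed here. The list was added after the values were seen, and the part of pigment cells in the results was not tested. With its level as a term in the fit, all 7 members that were called without it were called (*Sall3* with the highest limma adjusted p, 0.0115), and *C1ql1* was at 0.20 (limma adjusted p = 0.0232).

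In *Mll1KO* retinas, 7 of the 8 genes were lower than in WT at a limma adjusted p under 0.05, and the exception was *C1ql1*. Over all 11339 genes 23.3% were called in either direction, 14.5% as lower and 8.81% as higher. The members were chosen with earlier results of these data known, so their count is a description. With 1 library left out, 9.08% to 13.7% of all genes were called lower, and the same 7 members were among them. In the same 7 genes every *Mll1KO* sample lay below every WT sample, a pattern found in 26.5% of all genes. For *C1ql1* every *Mll1KO* sample lay above every WT sample, which holds for 14.6% of all genes. Fold changes are given on the log2(RPKM + 1) scale, which understates the change of weakly expressed genes, and p-values were adjusted over all genes. In bulk retina, fewer HC and less RNA of these genes per cell cannot be told apart.

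*Onecut1*, a cut-homeodomain transcription factor needed for the genesis of HC, had an RPKM of 3.12, 3.11 and 2.71 in the WT samples. In the *Mll1KO* samples its RPKM was 1.81, 1.51 and 1.34. The groups did not overlap, with WT sample c the lowest of the WT samples and *Mll1KO* sample a the highest of the *Mll1KO* samples. The log2 fold change was -0.64 ± 0.08 (SE, n = 3 per group; limma adjusted p = 0.000386), with a 95% confidence interval from -0.81 to -0.47. Without a pseudocount the mean log2 ratio was -0.95, and *Mll1KO* stood at 52.1% of WT. These values rest on 306, 253 and 215 reads in WT and 174, 123 and 99 reads in *Mll1KO*. For the library with 99 reads, the exact Poisson 95% interval was 80.5 to 121 reads, which covers counting error only. The *Mll1KO* samples varied by 15.4% (coefficient of variation), where counting error alone gives about 8.88%.

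*Onecut1* lies on chromosome 9 (chr9:74861921-74891781, plus strand, GRCm38), the chromosome that also carries *Kmt2a*. Of its 4113 exon bases, 52.8% are annotated as exons of the noncoding gene *Gm20649* on the same strand. Of the 50-base stretches of its transcripts, as long as the reads, 52.3% also occur in *Gm20649*, so that part of its reads could belong to either gene.

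*Onecut2*, a paralog expressed with *Onecut1* in early HC, had an RPKM of 1.25, 1.33 and 1.31 in the WT samples. The *Mll1KO* samples were at 0.726, 0.737 and 0.794. It had the lowest RPKM of the 8 genes in both genotypes, and the samples of each genotype lay close together. Their coefficient of variation was 3.20% in WT and 4.86% in *Mll1KO*. Counting error alone gives about 5.25% and 7.01%, so the closeness does not show a more precise value. On the log2 scale *Onecut2* differed by -0.39 ± 0.05 (SE, n = 3 per group; limma adjusted p = 0.000413), and the mean log2 ratio without a pseudocount was -0.79. Although its RPKM was lowest, *Onecut2* had 191 to 400 reads per library, because the gene is long. The annotation gives 16234 exon bases for *Onecut2*, on chromosome 18 from 64340020 to 64400987. The length behind the deposited RPKM was shorter, near 13390 bases, and several lengths gave whole reads.

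*Onecut3*, the remaining family member, had an RPKM of 3.23, 2.82 and 2.50 in the WT samples. In *Mll1KO* it was 1.52, 1.66 and 1.43. WT sample a was the highest, and the lowest WT sample still exceeded the highest *Mll1KO* sample by 0.847. Its log2 fold change was -0.60 ± 0.07 (SE, n = 3 per group; limma adjusted p = 0.000476), and *Mll1KO* reached 53.8% of WT. *Onecut3* lies at chr10:80494835-80517276 on the plus strand, and 0 of its 50-base stretches occur in transcripts of other genes.

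Added up, the Onecut family had an RPKM of 7.61, 7.26 and 6.52 in the WT samples and 4.05, 3.90 and 3.57 in the *Mll1KO* samples. The family sum in *Mll1KO* was 53.9% of WT. Its makeup moved less than its level. *Onecut1* made up 41.8% ± 0.945 (SD, n = 3) of the sum in WT and 40.3% ± 3.85 in *Mll1KO*. The share of *Onecut2* was 18.3% ± 1.84 in WT and 19.7% ± 2.28 in *Mll1KO*, and that of *Onecut3* was 39.9% ± 2.27 and 40.0% ± 2.54. For each of the 3 genes the shares overlapped between genotypes. All shares depend on how reads common to *Onecut1* and *Gm20649* were counted. They also depend on the lengths behind RPKM, and that of *Onecut2* is not settled.

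*Prox1*, a homeodomain factor of HC that is also made in bipolar and amacrine cells, had an RPKM of 37.9, 38.4 and 34.9 in the WT samples. The *Mll1KO* samples were at 24.9, 26.4 and 26.3. The groups were separated by 8.51, more than the range within either genotype. The log2 fold change was -0.50 ± 0.05 (SE, n = 3 per group; limma adjusted p = 0.000115), and *Mll1KO* was at 69.7% of WT. *Prox1* was by far the most abundant regulator, with 3948 to 7548 reads per library, and its level in WT was above that of 89.0% of all genes. It lies at chr1:190118035-190170714 on the minus strand. The antisense gene *Prox1os* covers 1.59% of its exon bases, and the strand of the counting was not given in the sources used here.

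*Sall3*, a zinc finger factor of the spalt family, had an RPKM of 2.55, 2.11 and 2.29 in the WT samples. In the *Mll1KO* samples it was 1.67, 1.51 and 1.54. The gap between the genotypes was 0.448, about the width of the WT range. *Sall3* had a log2 fold change of -0.36 ± 0.06 (SE, n = 3 per group; limma adjusted p = 0.00256). Without a pseudocount the mean log2 ratio was -0.56. The library with the fewest *Sall3* reads had 191. The gene lies on chromosome 18 from 80966376 to 80986771, and 0 of its 50-base stretches were shared.

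**Figure D1:**
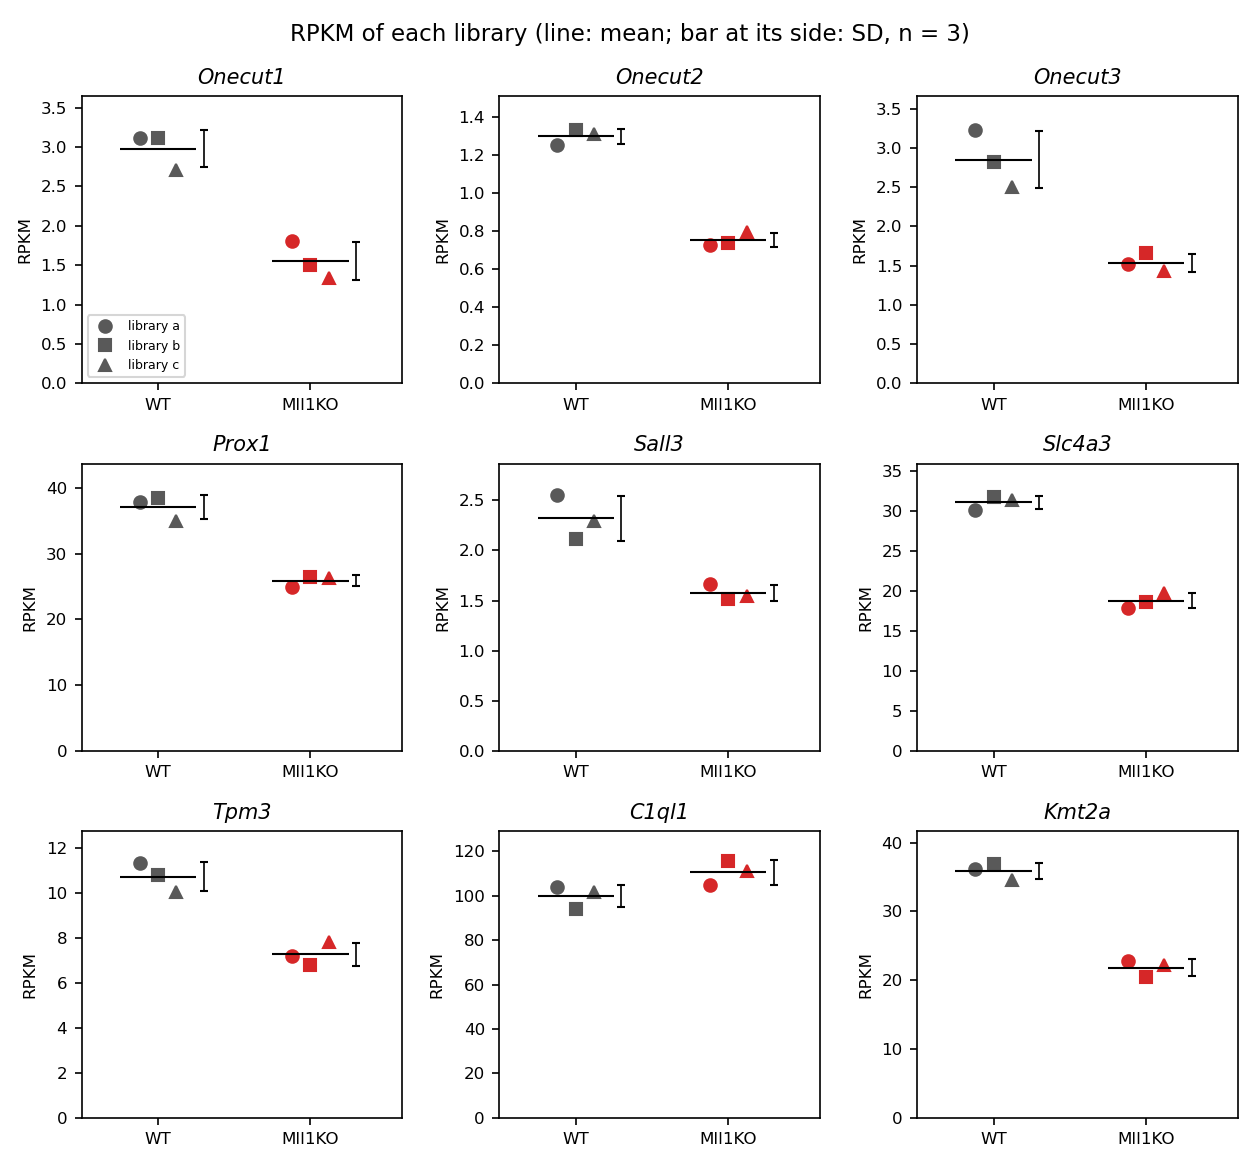
RPKM (vertical axes, starting at 0) of the 8 genes and of *Kmt2a* in each WT (grey) and *Mll1KO* (red) library, with the mean as a line and the SD (n = 3) as a bar at its side. In 7 of the 8 genes and in *Kmt2a* all *Mll1KO* points lie below all WT points, while *C1ql1* lies slightly higher in *Mll1KO*, a direction that turns when the libraries are scaled to an equal sum over rod genes.

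Among the effectors, *Slc4a3* encodes the chloride and bicarbonate exchanger AE3. Its RPKM was 30.1, 31.7 and 31.3 in the WT samples and 17.9, 18.6 and 19.7 in the *Mll1KO* samples. The samples of a genotype lay within a narrow range and the genotypes were 10.3 apart. The log2 fold change was -0.70 ± 0.05 (SE, n = 3 per group; limma adjusted p = 1.52e-05), which ranked 46 from the lowest among all 11339 genes. *Slc4a3* had at least 3045 reads in each library. It lies at chr1:75546266-75562172 on the plus strand, with 24 merged exons, and 0 of its 50-base stretches occur elsewhere.

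*Tpm3* encodes a tropomyosin that binds along actin filaments. Its RPKM was 11.3, 10.8 and 10.1 in the WT samples and 7.18, 6.80 and 7.82 in the *Mll1KO* samples. *Mll1KO* sample c was nearest to WT, at a distance of 2.24 from the lowest WT sample. For *Tpm3* the log2 fold change was -0.50 ± 0.06 (SE, n = 3 per group; limma adjusted p = 0.000506), and *Mll1KO* was at 67.8% of WT. *Tpm3* is on chromosome 3 (chr3:90072649-90100902, plus strand) and has 16 annotated transcripts, which a single value per gene does not separate. Of its 50-base stretches, 23.2% are shared with *Tpm3-rs7*, a near copy, so its count is uncertain to that extent.

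*C1ql1* encodes a secreted C1q-like protein that organizes synapses. Its RPKM was 104, 94.2 and 102 in the WT samples and 105, 116 and 111 in the *Mll1KO* samples. WT sample a and *Mll1KO* sample a were 0.857 apart, so that the groups were only just separated. The log2 fold change of 0.15 ± 0.05 (SE, n = 3 per group; limma adjusted p = 0.0694) did not pass the threshold, and its 95% confidence interval ran from 0.03 to 0.26. With TMM, median-of-ratios or upper-quartile factors it was called higher (limma adjusted p = 0.0428, 0.0442 and 0.0337), as it was without *Mll1KO* sample a (0.18 with an adjusted p of 0.037), and over all alternatives the adjusted p ranged from 0.0099 to 0.233. With the libraries scaled to an equal sum over rod genes its log2 fold change was -0.16, and it was called lower. *C1ql1* lies at chr11:102939264-102946688 on the minus strand and shares 0 of its 50-base stretches with other genes.

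Scaling to rod genes took the median change over all genes on the log2 scale from -0.03 to -0.30. Relative to that median, *C1ql1* was at 0.14, *Slc4a3* at -0.69, *Tpm3* at -0.48 and *Prox1* at -0.50. *Onecut1* was then at -0.55, *Onecut3* at -0.51, *Sall3* at -0.27 and *Onecut2* at -0.25. The same 7 genes stayed lower with TMM, median-of-ratios and upper-quartile factors. They were called lower with rod scaling too, but so were 83.5% of all genes. The balance of all calls did depend on scaling, since 37.8% of the called genes were higher with library totals, against 51.9% with TMM, 53.1% with median-of-ratios, 52.7% with upper-quartile factors and 2.33% with rod scaling.

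RPKM is per length, so levels can be ordered across genes, with limits. Reads shared with other genes leave the place of *Onecut1* open (52.3% of its 50-base stretches) and the level of *Tpm3* less certain (23.2%). The place of *Onecut2* rests on its long length, near 13390 bases and not settled. At that length it had 400, 353 and 340 reads in WT, more than the 306, 253 and 215 of *Onecut1*. In WT the order of mean RPKM was *C1ql1* (99.9 ± 5.03, SD, n = 3), *Prox1* (37.1 ± 1.89), *Slc4a3* (31.0 ± 0.87), *Tpm3* (10.7 ± 0.627), *Onecut1* (2.98 ± 0.237), *Onecut3* (2.85 ± 0.366), *Sall3* (2.32 ± 0.22) and *Onecut2* (1.30 ± 0.0416). The ranges of neighbours were separate in WT, except that *Onecut1* overlapped *Onecut3* and *Onecut3* overlapped *Sall3*, although *Onecut3* was above *Sall3* within each of the 3 WT samples. In *Mll1KO* the order was *C1ql1* (111 ± 5.63), *Prox1* (25.9 ± 0.869), *Slc4a3* (18.7 ± 0.929), *Tpm3* (7.27 ± 0.516), *Sall3* (1.58 ± 0.081), *Onecut1* (1.55 ± 0.239), *Onecut3* (1.53 ± 0.112) and *Onecut2* (0.752 ± 0.0365). There *Sall3*, *Onecut1* and *Onecut3* overlapped and had no order beyond their spread. The mean of *C1ql1* was 2.69 times that of *Prox1* in WT and 4.28 times in *Mll1KO*.

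Whether the genes changed by different amounts was asked from the log2 ratio of each pair within a library, in which library scaling cancels. All 28 pairs were compared with exact two-sided permutation tests, for which 3 against 3 samples give a smallest p of 0.1, and no p adjusted over the pairs was below 0.175. Among the Onecut genes, the ratio of *Onecut1* to *Onecut3* moved by -0.06, with an SD between libraries of 0.17 (exact permutation p = 0.8). That of *Onecut1* to *Onecut2* moved by -0.16 (SD 0.22, exact permutation p = 0.5). Differences within the family were thus smaller than the spread between libraries.

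Each Onecut gene was also set against *Prox1*, without a pseudocount. The ratio of *Onecut1* to *Prox1* moved by -0.43 (SD 0.19), that of *Onecut2* by -0.27 (SD 0.08) and that of *Onecut3* by -0.37 (SD 0.12). Each was without overlap between genotypes (exact permutation p = 0.1, 0.175 adjusted over the pairs). The SD of the *Onecut2* ratio was below the 0.09 that counting error alone gives per library. A p of 0.1 is the smallest that 3 against 3 samples can give, so the test could not pass the threshold and decides nothing here. On the log2(RPKM + 1) scale the order of *Onecut2* (-0.39) and *Prox1* (-0.50) was the reverse. The ratio of *Prox1* to *Sall3* differed by 0.04 (SD 0.14, exact permutation p = 0.9), which is within the spread between libraries and does not show equal change. The ratio of *Onecut2* to *Slc4a3* differed by -0.06 between the genotypes, without overlap (SD 0.0147, exact permutation p = 0.1). That difference exceeds the SD between libraries but is within its counting error of 0.08. The ratio of *Onecut1* to *Slc4a3* differed by -0.22 (SD 0.23, exact permutation p = 0.3) and that of *Onecut3* to *Slc4a3* by -0.16 (SD 0.19, exact permutation p = 0.5). The ratio of *Prox1* to *Slc4a3* differed by 0.21 (SD 0.07, exact permutation p = 0.1). For *Tpm3*, the ratio of *Prox1* to it differed by 0.04 (SD 0.08, exact permutation p = 0.7) and that of *Slc4a3* to it by -0.17 (SD 0.10, exact permutation p = 0.2). The ratios of *Onecut1*, *Onecut2* and *Onecut3* to *Tpm3* differed by -0.39, -0.23 and -0.33, without overlap (exact permutation p = 0.1 for each). Their ratios to *Sall3* differed by -0.39, -0.23 and -0.33 (exact permutation p = 0.1, 0.2 and 0.2), and only that of *Onecut1* did not overlap. The ratio of every other member to *C1ql1* was lower in *Mll1KO*, by a difference from -0.67 for *Prox1* to -1.09 for *Onecut1* (exact permutation p = 0.1 for each). Of the 28 pairs, 16 had ratios that did not overlap between the genotypes (57.1%), among them all 7 with *C1ql1*. Of the 21 pairs without *C1ql1*, 9 did so (42.9%), near the 41.5% of all 64280791 pairs of genes, where 10% would be expected of 3 against 3 samples by chance.

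Other genes linked to HC were read from lists of specification and effector genes, which are not confined to HC. Of 16 further specification genes, 12 had values, and *Foxn4*, *Ptf1a*, *Lhx1* and *Sall1* were not analysed here. Of these 12, 11 were called lower and 1 higher, where 14.5% of all genes were called lower and 8.81% higher. The median log2 fold change was -0.34, against -0.03 over all genes. The lowest was the homeobox gene *Six3*, whose RPKM of 36.9 ± 1.33 (SD, n = 3) fell to 20.1 ± 1.08 in *Mll1KO* (log2 fold change -0.85 ± 0.05, SE, limma adjusted p = 8.14e-06). *Nr2f2* was at -0.56 (limma adjusted p = 0.00028), *Isl1* at -0.54 (0.000183), *Pax6* at -0.34 (0.00153), *Tfap2a* at -0.33 (0.0024) and *Tfap2b* at -0.29 (0.0109). The highest and most abundant was *Esrrb*, an orphan nuclear receptor gene, which rose from 56.0 ± 3.46 to 72.4 ± 1.34 (log2 fold change 0.36 ± 0.05, SE, limma adjusted p = 0.000697) and was no longer called with rod scaling (0.06, adjusted p = 0.234).

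Of 22 further effector genes, 21 had values, *Gja10* being the one not analysed here, and 13 were called lower, 3 higher and 5 in neither direction (median log2 fold change -0.29). The lowest was *Ndrg1*, at 73.5 ± 6.57 (SD, n = 3) in WT and 42.4 ± 2.05 in *Mll1KO* (log2 fold change -0.78 ± 0.06, SE, limma adjusted p = 5.36e-05). *Adra2a*, an adrenergic receptor gene, was at -0.63 (limma adjusted p = 9.75e-05) and the septin gene *Sept4* at -0.40 (0.000122). *Calb1*, which encodes the calcium-binding protein calbindin, had overlapping groups and was not called (-0.13 ± 0.07, SE, limma adjusted p = 0.201), but with rod scaling, like most genes, it was called lower (-0.41, adjusted p = 0.000475). The genes of GABA synthesis went in opposite directions at the authors' scaling, *Gad2* being at -0.49 (limma adjusted p = 0.00165). *Gad1*, the highest of the list, was at 0.30 (limma adjusted p = 0.00684), and at -0.00157 with rod scaling. *Slc32a1*, which encodes the vesicular GABA transporter, was at 0.16 (limma adjusted p = 0.0665), was called with TMM, median-of-ratios and upper-quartile factors, limma-voom, the replicate block and without *Mll1KO* sample b (adjusted p = 0.0367, 0.0349, 0.0346, 0.0432, 0.0386 and 0.0485), and with rod scaling was called lower at -0.14 (adjusted p = 0.0438). *Mgarp*, the most abundant gene of the list, was at 0.23 (limma adjusted p = 0.029), but lost its call without WT sample a or b, without *Mll1KO* sample b or c and with the pigment gene term (adjusted p = 0.0727, 0.0689, 0.0567, 0.113 and 0.071), and was at -0.0767 with rod scaling. Its log2 fold change was 0.23 with the pigment gene term too, and 0.17 to 0.28 with 1 library left out.

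Together these lists held 33 genes with values, 24 called lower and 4 higher. Over all genes 14.5% were called lower and 8.81% higher. Of the 33, 12 also stand in a list of another retinal cell type. These are *Gad1*, *Gad2*, *Isl1*, *Nefh*, *Nefl*, *Nefm*, *Pax6*, *Slc32a1*, *Stmn2*, *Tfap2a*, *Tfap2b* and *Vim*. The 21 that stand in none were called lower in 14 and higher in 3 cases, with a median log2 fold change of -0.27. Those other lists are short, so absence from them does not make a gene confined to HC. The lists were written with earlier results of these data known, and their counts are a description.

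**Figure D2:**
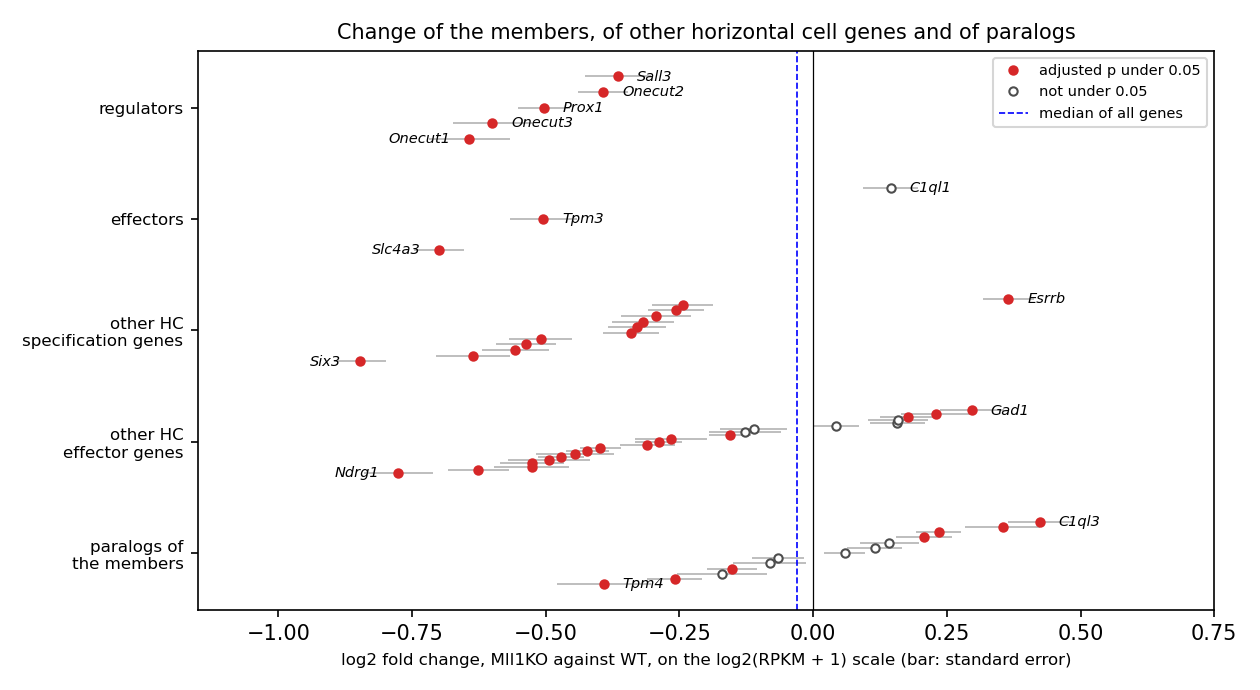
Log2 fold change of *Mll1KO* against WT on the log2(RPKM + 1) scale (horizontal axis) for the regulators, the effectors, other HC genes and paralogs, with the standard error as a bar and genes at a limma adjusted p under 0.05 filled in red. Of the 8 members only *C1ql1* lies to the right of the median of all genes (dashed line, -0.03) with library totals, and with rod scaling its sign turns while it stays above the median of all genes on that scale.

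Paralogs of the members did not share one direction. Of 20 listed, 13 had values, 3 were called lower and 4 higher, and the median log2 fold change was 0.06. *Prox2*, *Sall1*, *Sall4*, *Slc4a1*, *Slc4a11*, *Tpm2* and *C1ql4* were not analysed here. Among the relatives of *C1ql1*, *C1ql3* was the highest of the list and rose from an RPKM of 12.8 ± 0.0321 (SD, n = 3) to 17.5 ± 1.53 in *Mll1KO* (log2 fold change 0.42 ± 0.06, SE, limma adjusted p = 0.001). *C1ql2* was at 0.35 (limma adjusted p = 0.00612). With rod scaling *C1ql3* was at 0.14 and *C1ql2* at 0.06, and neither was called. Among tropomyosins, *Tpm4* had the lowest value of the list, at an RPKM of 11.3 ± 1.08 in WT and 8.41 ± 1.04 in *Mll1KO* (log2 fold change -0.39 ± 0.09, SE, limma adjusted p = 0.0111). *Tpm1* was at -0.07 and was not called (limma adjusted p = 0.36), but with rod scaling, like most genes, it was called lower (-0.35, adjusted p = 0.000119). Of the transporters related to *Slc4a3*, *Slc4a7* was at -0.26 (limma adjusted p = 0.00597) and *Slc4a8* at 0.23 (0.00365), the latter turning to -0.0542 with rod scaling. *Sall2* was at 0.06 (limma adjusted p = 0.305), and with rod scaling, like most genes, was called lower at -0.24 (adjusted p = 0.000982). *Cux1* and *Cux2*, which like the Onecut genes encode cut-domain proteins, were at -0.15 and 0.21 (limma adjusted p = 0.0401 and 0.0191). The call of *Cux1* was lost in 11 of 16 alternatives, among them TMM factors (adjusted p = 0.0903) and each library left out (adjusted p up to 0.129). That of *Cux2* was lost without WT sample a or b or *Mll1KO* sample b (limma adjusted p = 0.0581, 0.0698 and 0.0616), and *Cux2* was at -0.0721 with rod scaling. Whether a member changed by another amount than its paralog was not tested.

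The genes whose pattern over the 6 libraries was most like that of the regulators were ranked by Pearson r with the mean standardized profile of the 5 regulators, among 11247 genes. Among the most alike were *Mns1* (r = 0.999), *Tnrc6c* (r = 0.997), *Alkbh1* (r = 0.997) and *Zfp704* (r = 0.997). The 6 points fall into the 2 genotypes, so that r mainly reflects the difference between them, and 5.64% of the ranked genes had an r over 0.95. The log2 fold changes of these genes were -0.82, -0.16, -0.26 and -0.31, so that a like pattern did not mean a like size. *Tnrc6c* lost its call when WT sample b (limma adjusted p = 0.056) or *Mll1KO* sample c (0.052) was left out. Of the effectors, *Tpm3* had an r of 0.973 and *Slc4a3* one of 0.972 with the same profile, and *C1ql1* one of -0.763. *Kmt2a* itself had an r of 0.986.

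Because the members are not confined to HC, marker lists of other cell types stand beside them, and the part of those cells in the result was not tested. Ganglion cells also express Onecut genes, and their list summed to an RPKM of 823, 792 and 826 in the WT samples and 649, 606 and 564 in the *Mll1KO* samples. Of its 15 genes with values, 14 were called lower and 0 higher (median -0.44), with *Sncg* the most abundant in WT (log2 fold change -0.55), *Pou4f2* the lowest (-0.89) and *Slc17a6* the highest (-0.15, limma adjusted p = 0.159, and called lower at -0.44 with rod scaling), while *Pou4f3*, *Isl2* and *Atoh7* were not analysed here. The bipolar list summed to 699.9, 698 and 694 in WT and 582, 576 and 593 in *Mll1KO*. It had 12 of 19 genes called lower and 0 higher (median -0.29), with *Neto1* the lowest (-0.81) and *Bhlhe23* the highest (0.09, and called lower at -0.19 with rod scaling, adjusted p = 0.00907). The amacrine list summed to 792, 788 and 803 in WT and 721, 685 and 738 in *Mll1KO*. It had 7 of 17 genes called lower and 2 higher (median -0.17), with *Calb2* the most abundant in WT and the lowest (-0.50) and *Gad1* the highest (0.30, and -0.00157 with rod scaling), while *Th*, *Ptf1a* and *Vip* were not analysed here.

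The sums of the Müller, rod and cone lists were higher in *Mll1KO* at the authors' scaling, but with rod scaling, which holds the rod sum equal, the Müller sum was at 101% of WT and the cone sum at 90.8%. The Müller list summed to 1561, 1546 and 1691 in WT and 1944, 2030.5 and 1997 in *Mll1KO*, and 7 of 16 genes were called higher, 3 lower and 6 in neither direction (median 0.10), with *Glul* the most abundant (0.47), *Clu* the highest (0.68) and *Crym* the lowest (-0.98). The rod list summed to 19699.8, 18823 and 19324 in WT and 23769, 24247 and 23519 in *Mll1KO*, and 14 of 19 genes were called higher and 1 lower (median 0.25). In it *Guca1b* was the highest (0.83) and *Nr2e3* the lowest (-0.36). The cone list summed to 588, 610.5 and 626 in WT and 655, 693 and 702 in *Mll1KO*, and 7 of 13 genes were called higher and 1 lower (median 0.27), with *Gnb3* the most abundant (-0.01, above 0 with TMM factors and called lower at -0.32 with rod scaling), *Arr3* the highest (0.66) and *Opn1sw* the lowest (-0.44).

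Of the 8 genes, 4 (*Onecut1*, *Prox1*, *Slc4a3* and *Tpm3*) matched promoter windows of 300 bases in the RefSeq table for GRCm38.p6, with 6 windows in all. These genes fell together, and their windows are shown to compare base content at the start of transcription. Over all 32851 windows the median number of CG dinucleotides was 7. The *Onecut1* window held 38, more than 95.0% of all windows, that of *Slc4a3* 28 (more than 85.8%) and the upstream window of *Prox1* 25 (more than 81.6%), while its downstream window (chr1:190169466-190169765) held 14. CG is its own reverse complement, so 1 count covers both strands, and capitals mark each CG.
Onecut1, chr9:74861671-74861970, plus strand: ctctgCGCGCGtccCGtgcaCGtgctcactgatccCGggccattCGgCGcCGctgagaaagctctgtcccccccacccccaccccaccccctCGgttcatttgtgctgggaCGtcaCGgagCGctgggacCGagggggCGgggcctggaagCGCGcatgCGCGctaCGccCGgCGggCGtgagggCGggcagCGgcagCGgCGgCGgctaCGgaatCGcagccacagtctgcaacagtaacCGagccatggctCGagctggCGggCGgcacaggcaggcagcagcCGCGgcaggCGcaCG
Slc4a3, chr1:75546212-75546511, plus strand: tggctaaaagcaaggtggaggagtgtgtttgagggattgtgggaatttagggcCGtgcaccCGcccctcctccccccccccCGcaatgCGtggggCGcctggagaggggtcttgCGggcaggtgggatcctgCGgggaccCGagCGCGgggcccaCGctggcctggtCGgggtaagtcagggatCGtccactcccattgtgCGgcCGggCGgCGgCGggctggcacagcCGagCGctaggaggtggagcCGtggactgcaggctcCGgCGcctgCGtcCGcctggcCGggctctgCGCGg
Prox1, chr1:190170778-190171077, minus strand: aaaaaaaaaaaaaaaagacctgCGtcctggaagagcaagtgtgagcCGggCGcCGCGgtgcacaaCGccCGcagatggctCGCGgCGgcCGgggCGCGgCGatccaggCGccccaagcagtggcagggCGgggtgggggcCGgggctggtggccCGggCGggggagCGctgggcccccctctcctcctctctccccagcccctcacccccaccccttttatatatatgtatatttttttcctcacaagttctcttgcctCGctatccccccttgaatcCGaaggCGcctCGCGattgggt

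*Tpm3* differed in this respect, since its upstream window held 3 CG, more than 23.3% of all windows, and its downstream window (chr3:90079271-90079570) held 15. The windows were also searched on both strands for ATCAAT, the core of sites that Onecut proteins bind. This word, which reads ATTGAT when it lies on the other strand, is held by 7.54% of all windows. Of the 6 windows only the upstream one of *Tpm3* held it, on the strand shown, and it is marked in capitals. The match is a description of letters, and binding was not measured.
Tpm3, chr3:90072401-90072700, plus strand: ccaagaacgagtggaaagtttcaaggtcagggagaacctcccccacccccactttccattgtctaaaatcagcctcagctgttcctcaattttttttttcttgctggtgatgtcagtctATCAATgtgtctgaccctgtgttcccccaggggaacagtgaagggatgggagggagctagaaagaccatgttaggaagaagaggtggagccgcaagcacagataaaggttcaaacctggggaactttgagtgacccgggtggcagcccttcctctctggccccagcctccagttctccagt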

How the data were processed

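RNA-seq was made from 3 *Mll1KO* and 3 WT retina samples. The authors aligned single-end reads with STAR 2.0.4b, counted them per gene with featureCounts 1.45, removed genes without CPM > 5 in at least 5 samples and deposited RPKM. Per the labels the build was mm10, whereas the study's methods write a GRCh38 name. The deposited table also holds the authors' own comparison (fold change, mean level, p-value and FDR), made with edgeR (3.17.9 in the submitters' processing notes), which was not used here. Its 11404 lines gave 11339 genes after 59 repeated gene IDs were reduced to 1 line each, and 18 symbols turned into dates were restored from the gene IDs. Coordinates, exons and shared stretches came from GENCODE vM21 (GRCm38), which held 11323 of the IDs.

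Genotypes were compared with limma 3.58.1 (R 4.3.3) on log2(RPKM + 1) with a variance trend. Genotype was the only term, p-values were adjusted over all genes by Benjamini-Hochberg, and the threshold was 0.05. The deposited unit being RPKM, the main test was on log values, and the authors' edgeR test was not run. Library totals and lengths were recovered as the values that make every gene whole within 0.05 reads, which 100% of genes were, and these reads served limma-voom, scaling factors and depth. Of the recovered lengths, 53.3% equal the annotated exon length and 259 genes allow several. Alternatives were pseudocounts of 0.1 and 5, a mean RPKM of at least 1, TMM, median-of-ratios and upper-quartile factors, an equal sum over rod genes, limma-voom, a replicate block, each library left out and, chosen after seeing the data, the pigment gene level as a term. The fit was also run on simulated data, whose outcome is not given here and backs no result. Named were the 8 members, *Kmt2a*, genes of the HC and paralog lists with the highest and lowest of each, the highest, lowest and most abundant gene of other lists, and the 5 genes most like the regulators (mean RPKM of at least 1). A few genes that this rule takes are not reported here. Members and lists were chosen with earlier results of these data known. Nothing in the sources used here says whether the samples of a genotype came from separate litters. Python 3.11.15 was used with scipy 1.17.1, numpy 2.4.6, matplotlib 3.10.9 and pandas 2.3.3.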

Additional observations from a re-analysis of the deposited data

How the results depend on the processing

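The 7 lowered members kept their direction and their call in all 16 alternatives (112 of 112 values, with a highest limma adjusted p of 0.0126). *C1ql1*, at 0.15, passed the threshold with TMM factors (0.18), median-of-ratios factors (0.18), upper-quartile factors (0.18), the pigment gene level as a term (0.20) and without *Mll1KO* replicate a (0.18), was at 0.10 to 0.18 with 1 library left out, and turned to -0.16 with rod scaling, where it was called lower. The number of members called was thus 7 or 8. Between genotypes 2643 genes were called, 9692 with rod scaling, and between 1704 (without WT replicate b) and 2536 with 1 library left out, the value without *Mll1KO* replicate c being 1757. With rod scaling *Gad1* turned to -0.00157, *Mgarp* to -0.0767, *Slc32a1* to -0.14, *Slc4a8* to -0.0542, *Sall2* to -0.24, *Cux2* to -0.0721 and *Bhlhe23* to -0.19. *Gnb3*, at -0.01, was at 0.0184 with TMM, 0.0209 with median-of-ratios and 0.0204 with upper-quartile factors, at -0.32 with rod scaling, and at -0.0428 to 0.00905 with 1 library left out. The cause was not tested. HC list genes called numbered 28, and 24 to 30 in the alternatives. Pairs of members without overlap numbered 16, 14 on the log2(RPKM + 1) scale, and 16 to 19 with 1 library left out. With fewer samples absence of overlap is more frequent by chance, so the last range does not measure stability. The letters a, b and c were taken as names only, since the deviations of same-letter samples from their group means correlated at -0.039, -0.19 and -0.007. Library totals fell from a to c in both genotypes, and whether the letters stand for a batch was not tested. A replicate block called 2242 genes and 7 members, and it changed no call of a member. Counting error limits *Onecut1*, *Onecut2*, *Onecut3* and *Sall3* most, and 3 samples per genotype limit all tests.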
